A study of Drosophila melanogaster with 18 samples.

Results

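The digestive proteases, glycosidases and lysozymes of the midgut were followed through PolII occupancy and Ets21c binding in intestinal stem cells and enteroblasts (ISCs/EBs) and in enterocytes (ECs). Members were chosen by gene symbol alone: the Jonah serine proteases (Jon genes) and yip7, the trypsins (symbols ending in Try), the maltases Mal-A and Mal-B, the amylases, the LMan mannosidases, the lysozymes and mex1. The fly annotation holds 55 such genes, and 22 of them stood in at least 1 of the 4 deposited gene lists, which together hold 7153 genes. The other 33 stood in no list.

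The series used targeted DamID (TaDa), in which a protein fused to the bacterial methylase Dam marks GATC sites near where it binds and the marked DNA is amplified and sequenced. All 18 samples were midguts dissected from mated adult females kept for 72 hours at 29°C, with 3 samples for each of 6 genotypes: UAS-LT3-Dam, UAS-LT3-Dam-PolII or UAS-LT3-Dam-ets21c-RA, each under esg-Gal4, UAS-GFP, tub-Gal80-TS (ISCs/EBs) or under Myo1A-Gal4, UAS-GFP, tub-Gal80-TS (ECs). Every genotype thus carried the GFP and Gal80 transgenes, Dam alone was the control within each driver, and the driver rather than a sort set the cell type. A sample averages over all cells of the midgut in which its driver is active, whatever their region. For each fusion and cell type the authors' deposited table gives a height per gene, which is the log2 of the fusion signal over that of Dam alone, and an FDR; genes that did not pass are not listed and have no value. The lists hold 2216 genes for PolII in ISCs/EBs, 948 for PolII in ECs, 5184 for Ets21c in ISCs/EBs and 4854 for Ets21c in ECs. Heights are pooled over replicates, so no spread between samples can be given, no comparison below carries a test, and the read depth behind each height is unknown.

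ECs secrete the enzymes that break down protein, starch, sugars and bacteria in the gut lumen, whereas ISCs divide and EBs are their immature daughters. Jonah proteases and trypsins are serine proteases of the gut lumen. Amylase cuts starch and maltases release glucose from the products, lysozymes cut the bacterial cell wall, and LMan genes encode alpha-mannosidases of the lysosomal type. The gene mex1 encodes a small protein of the midgut epithelium and is widely used as an EC marker. Several of these families are tandem arrays of closely related genes. The labels were checked against marker genes. Of 8 progenitor markers, 7 were PolII-bound in ISCs/EBs, including esg (1.463), a factor that keeps cells in the progenitor state, and none in ECs. Of 8 EC markers, 5 of which are members, 4 stood in each PolII list. The 4 of ECs were GATAe and the members Jon99Ci, Mal-A1 and mex1, so the EC label has little check from outside the family. GATAe, a GATA factor of the midgut, was listed in both, at 1.543 in ISCs/EBs and 0.56 in ECs. Myo31DF, a name of the gene that gives the EC driver Myo1A its name, was listed in ISCs/EBs (0.472) and not in ECs, and nub, an EC transcription factor gene, in neither PolII list. No enteroendocrine marker of 8 and no muscle marker of 4 stood in a PolII list, and of 4 hemocyte markers srp did in ISCs/EBs (0.861).

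A feature that the choice by symbol did not use was the sequence before the gene start. The motif AGATAA, to which GATA factors bind, was found on either strand within 250 bases before the start of 26 of 54 protein-coding digestive enzyme genes (48.1%), against 17.2% of 13968 protein-coding genes. The TATA box TATAAA, searched on the gene's own strand and beginning 40 to 15 bases before the start, was found in 28 of 54 (51.9%), against 8.1%. The 28 TATAAA matches began 24 to 34 bases before the start, with a median of 29. Both motifs together occurred before 13 of the 54. The share of all protein-coding genes with both was not computed, so this count has no background. Motifs of ETS factors, the class of Ets21c, were found at shares near those of all genes: GGAAGT was found in 4 of 54 (7.41%, against 7.85%) and CCGGAA in 4 of 54 (7.41%, against 5.33%), each on both strands, where the pair can overlap by the 4 bases GGAA. In the PolII list of ECs as a whole AGATAA was found before 22.8% of protein-coding genes and TATAAA before 6.66%. A match is a run of letters, not a measured site. Many of the 54 genes are related copies in tandem arrays, so their windows are not separate observations. The windows of Mal-A7 and Mal-A8, on opposite strands, overlap, and their AGATAA matches are the same site, counted for both genes. The shares were not recounted per array. Of the 21 members in an Ets21c list, GGAAGT was found before thetaTry and alphaTry and CCGGAA before Mal-A1 alone. The GGAAGT before alphaTry lies within the neighboring gene epsilonTry. Other windows also overlap genes, as those of LysB, LysE and LysP overlap mwh. Ets21c peaks were assigned over distances far beyond this window.

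The windows of 8 members show these features. They are written 5′ to 3′ on the strand of the gene, end at the base before the annotated start, and carry matches to the 4 motifs in capitals, where TTATCT is AGATAA read from the other strand. Jon99Ci, the Jonah gene with the largest PolII height in ECs, is set beside its unlisted neighbors Jon99Cii and Jon99Ciii. Next to them are yip7 and the lysozyme genes LysB and LysP, listed for Ets21c and not for PolII. Jon74E and mex1, listed for both in ECs, have no match. The listed genes LysE, LManI, Mal-A3, Mal-A5 and etaTry, whose windows are not printed, have none either.
Jon99Ci: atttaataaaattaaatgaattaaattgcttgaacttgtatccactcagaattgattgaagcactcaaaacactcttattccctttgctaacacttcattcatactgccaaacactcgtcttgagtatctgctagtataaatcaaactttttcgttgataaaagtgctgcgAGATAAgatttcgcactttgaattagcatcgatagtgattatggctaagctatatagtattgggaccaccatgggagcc
Jon99Cii: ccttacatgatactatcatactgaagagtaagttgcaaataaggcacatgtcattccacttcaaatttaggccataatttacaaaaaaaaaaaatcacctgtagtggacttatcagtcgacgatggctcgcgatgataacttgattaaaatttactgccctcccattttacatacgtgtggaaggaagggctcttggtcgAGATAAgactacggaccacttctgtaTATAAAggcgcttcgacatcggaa
Jon99Ciii: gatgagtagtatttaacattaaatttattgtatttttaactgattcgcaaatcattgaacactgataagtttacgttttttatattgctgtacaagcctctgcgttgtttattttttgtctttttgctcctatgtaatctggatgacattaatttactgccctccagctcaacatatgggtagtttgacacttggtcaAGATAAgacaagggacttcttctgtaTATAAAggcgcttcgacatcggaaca
yip7: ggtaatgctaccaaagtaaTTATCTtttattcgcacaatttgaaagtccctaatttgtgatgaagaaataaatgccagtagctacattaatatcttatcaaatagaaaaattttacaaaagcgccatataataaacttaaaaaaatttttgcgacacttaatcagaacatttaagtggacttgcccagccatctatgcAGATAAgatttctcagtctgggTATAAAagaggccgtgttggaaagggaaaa
LysB: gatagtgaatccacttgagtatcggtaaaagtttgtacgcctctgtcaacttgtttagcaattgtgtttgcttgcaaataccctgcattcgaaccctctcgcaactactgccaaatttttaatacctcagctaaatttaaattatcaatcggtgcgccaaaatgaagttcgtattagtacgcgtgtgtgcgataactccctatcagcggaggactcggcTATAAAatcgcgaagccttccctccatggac
LysP: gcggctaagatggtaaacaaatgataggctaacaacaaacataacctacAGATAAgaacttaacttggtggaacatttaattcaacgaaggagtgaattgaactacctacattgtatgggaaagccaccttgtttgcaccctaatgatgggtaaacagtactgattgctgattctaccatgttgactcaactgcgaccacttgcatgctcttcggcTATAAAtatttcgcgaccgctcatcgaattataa
Jon74E: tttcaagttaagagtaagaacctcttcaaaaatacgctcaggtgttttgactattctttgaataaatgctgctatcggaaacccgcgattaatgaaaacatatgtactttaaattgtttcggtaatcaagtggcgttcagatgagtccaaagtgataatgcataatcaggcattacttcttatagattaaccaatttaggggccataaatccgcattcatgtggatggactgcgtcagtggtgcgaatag
mex1: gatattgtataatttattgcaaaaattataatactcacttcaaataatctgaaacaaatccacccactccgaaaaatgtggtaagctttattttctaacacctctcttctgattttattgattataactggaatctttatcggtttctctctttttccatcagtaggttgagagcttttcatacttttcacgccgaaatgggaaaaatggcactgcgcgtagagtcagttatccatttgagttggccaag

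In release 6 of the fly genome (BDGP6) these windows lie for Jon99Ci at chr3R:29926190-29926439, Jon99Cii at chr3R:29924616-29924865, Jon99Ciii at chr3R:29921966-29922215, yip7 at chr3L:6034966-6035215, LysB at chr3L:1207121-1207370, LysP at chr3L:1218697-1218946, Jon74E at chr3L:17549128-17549377 and mex1 at chr3L:15519593-15519842. The pair Jon99Cii and Jon99Ciii had AGATAA 50 and 52 bases and TATAAA 24 and 26 bases before the start, a similar arrangement to yip7, where AGATAA and TATAAA began 52 and 30 bases before it. Jon99Ci had AGATAA at 79 bases and no TATAAA in the searched range. By family, TATAAA was found before 13 of 17 Jonah genes and yip7, 5 of 11 trypsin genes, 4 of 10 maltase genes, 3 of 6 lysozyme genes and 3 of 6 LMan genes, and before none of the 3 amylase genes, all 3 of which had AGATAA. Both motifs were present in listed and in unlisted members. AGATAA was found before 11 of 22 listed and 15 of 32 unlisted genes. TATAAA was less frequent in listed genes, at 9 of 22 against 19 of 32 unlisted genes. This direction is not particular to the family. TATAAA was found before 3.94% to 6.66% of the protein-coding genes in the 4 lists, against 8.1% of all protein-coding genes.

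**Figure D1:**
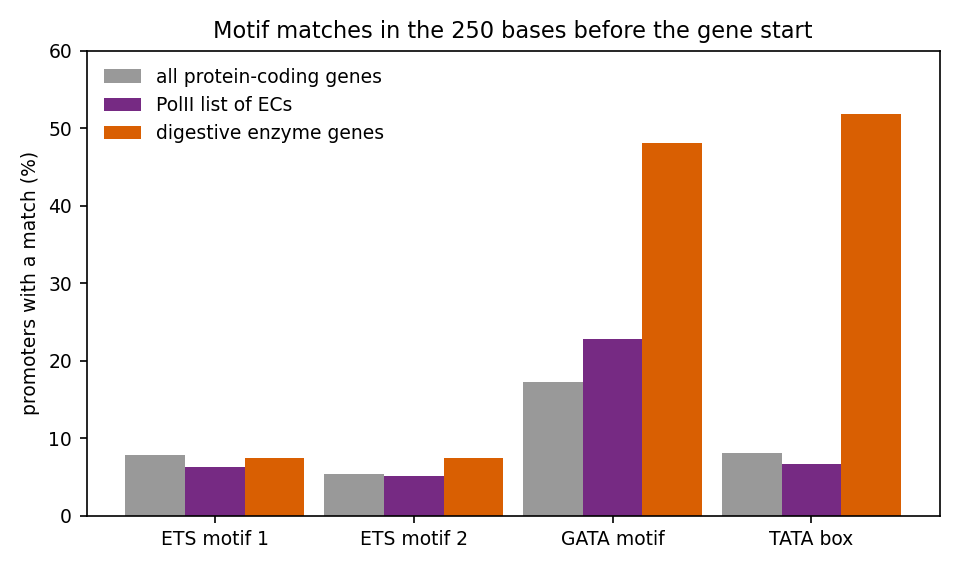
Share of promoters, in percent, with a match in the 250 bases before the gene start, for all protein-coding genes, those in the PolII list of ECs and the digestive enzyme genes; ETS motif 1 is GGAAGT, ETS motif 2 is CCGGAA, the GATA motif is AGATAA and the TATA box is TATAAA. The digestive enzyme genes stand at 48.1% for the GATA motif and 51.9% for the TATA box, against 17.2% and 8.1% of all protein-coding genes. Related copies in tandem arrays are each counted.

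PolII occupancy was recorded at more digestive enzyme genes in ECs than in ISCs/EBs, although the EC list is the shorter. In ECs 9 of the 55 genes were listed (16.4%), against 5.15% of all 18358 annotated genes. In ISCs/EBs 2 of the 55 were listed (3.64%), against 12.0% of all genes. Both genes of ISCs/EBs were also in the EC list, so 7 of the 9 were listed in ECs alone (77.8%). Across all genes, 239 of the 946 PolII-bound genes of ECs that matched the annotation were listed in ECs alone (25.3%). Among protein-coding genes of 480 to 4815 bp, the span of its protein-coding members, 12.0% were listed for PolII in ISCs/EBs and 7.04% in ECs. Most members in a PolII list had an FDR there above 0.001. The PolII FDR depends on transcript length as well as on height. At an FDR of at most 0.001, mex1 alone was left of the 9 (1.82% of the family, against 1.94% of all genes) and neither of the 2 in ISCs/EBs (background 6.41%). At a height of at least 0.5, 4 were left in ECs (7.27%, against 2.08%) and both in ISCs/EBs (3.64%, against 10.5%).

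**Figure D2:**
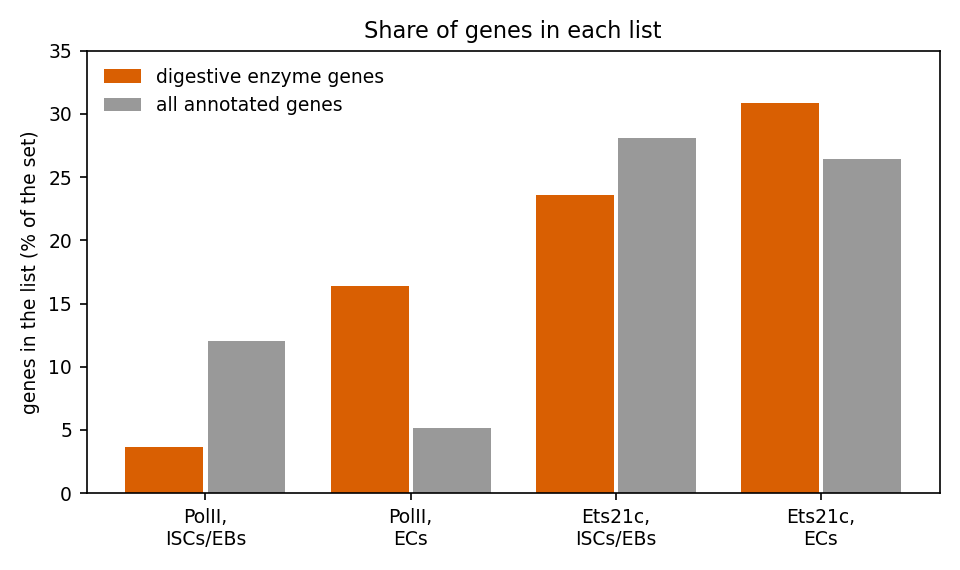
Share of genes in each of the 4 lists, in percent of the 55 digestive enzyme genes and of the 18358 annotated genes. The digestive enzyme genes stand below all genes for PolII in ISCs/EBs (3.64% against 12.0%) and above them for PolII in ECs (16.4% against 5.15%), and nearer to them for Ets21c.

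Of the proteases, 3 were PolII-bound in ECs and none in ISCs/EBs. The trypsin gene kappaTry had a PolII height of 0.726 in ECs (FDR 0.0019), the largest of the 9 and above 89.9% of the list. Jon99Ci followed at 0.583 (FDR 0.0083) and Jon74E at 0.557 (FDR 0.0054), above 75.1% and 71.6% of the list. These 3 heights lie above the list's median of 0.459. Each of the 3 genes is about 1 kb long, with 937 bp for kappaTry, 964 bp for Jon99Ci and 1051 bp for Jon74E. They hold 3, 7 and 5 GATC sites, the units that DamID can resolve, in that order. The other 10 trypsin genes and the other 15 genes of the Jonah group were in neither PolII list.

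Among the genes for sugar digestion the maltases led. Of the 8 genes of the Mal-A array, 4 were PolII-bound in ECs: Mal-A4 at 0.445, Mal-A7 at 0.401, Mal-A8 at 0.329 and Mal-A1 at 0.325. All 4 heights lie below the list's median, and the last pair lies close to the lowest height listed, 0.301. Mal-A1 alone of them was also PolII-bound in ISCs/EBs, at 0.931 (FDR 0.0041). LManI, an alpha-mannosidase gene, had a PolII height of 0.349 in ECs, above 16.0% of the list. No amylase or lysozyme gene was in a PolII list, nor were the maltase genes Mal-B1 and Mal-B2.

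The EC marker mex1 was in both PolII lists, at 1.105 in ISCs/EBs and 0.594 in ECs. Mal-A1 and mex1 were thus higher in ISCs/EBs than in ECs, by 0.606 and 0.511 on the log2 scale. This direction is shared by nearly all genes: of 707 in both PolII lists 704 had the larger height in ISCs/EBs, with medians of 1.249 and 0.456. Set within each list, mex1 lay above 63.8% of the genes of ISCs/EBs and above 76.5% of those of ECs, and Mal-A1 above 49.5% and 6.86%. Heights in different cell types come from separate Dam controls and separate list ranges, and the spread behind these differences cannot be given.

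**Figure D3:**
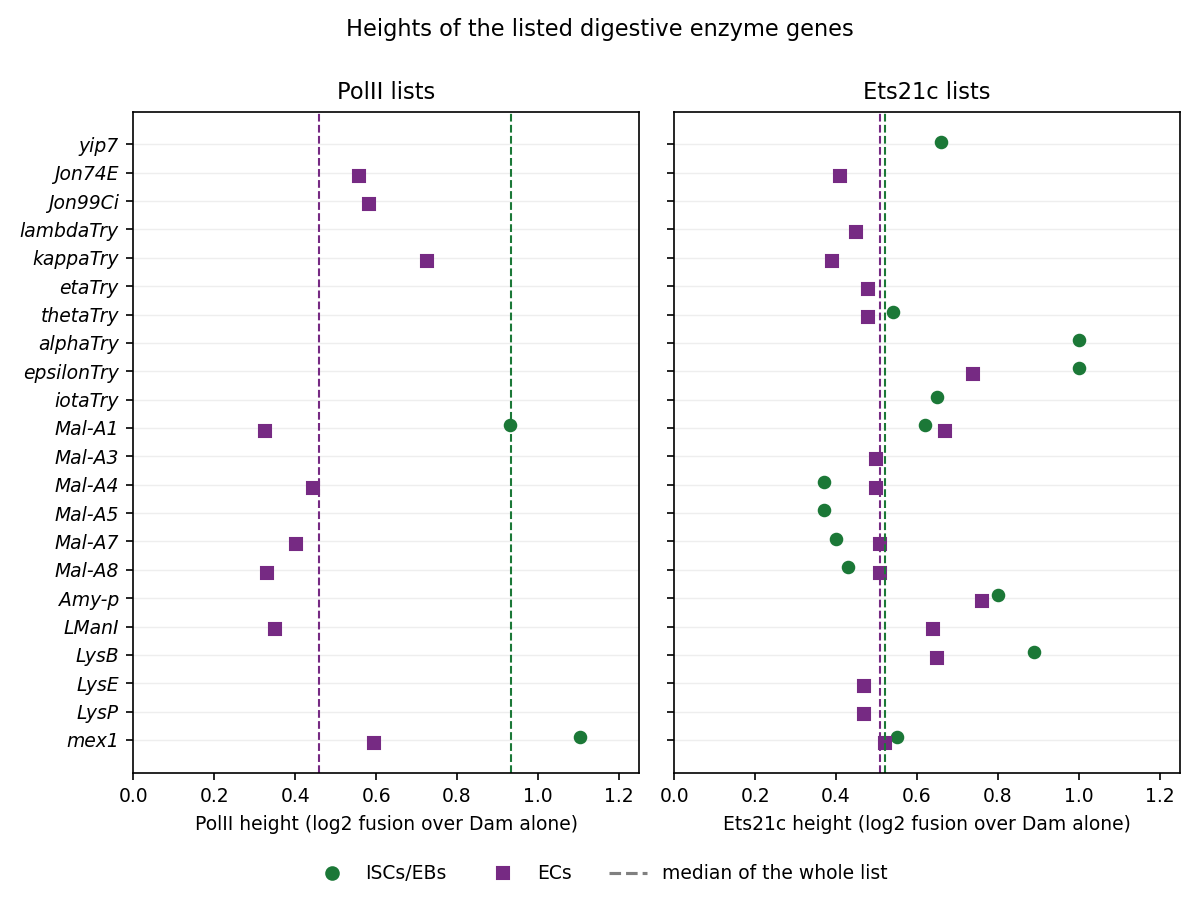
Heights (log2, fusion over Dam alone) of the 22 listed digestive enzyme genes for PolII (left) and Ets21c (right), with circles for ISCs/EBs, squares for ECs and dashed lines for the median of each whole list in the same color. A missing symbol means that the gene is not in that list. For PolII, mex1 and Mal-A1 alone have a circle, and 9 genes have a square.

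Ets21c was listed at 13 of the 55 genes in ISCs/EBs (23.6%, against 28.1% of all genes) and at 17 in ECs (30.9%, against 26.4%). These shares are near those of all genes. The median Ets21c height of the members was 0.62 in ISCs/EBs, where that of the list was 0.52, and 0.50 in ECs, where it was 0.51. In both cell types 9 members were listed, which is 69.2% of those in ISCs/EBs and 52.9% of those in ECs. For all genes the shared part was 66.2% and 70.6%. In ISCs/EBs alone 4 members were listed, namely yip7, alphaTry, iotaTry and Mal-A5, and in ECs alone 8, namely Jon74E, lambdaTry, kappaTry, etaTry, Mal-A3, LManI, LysE and LysP. At an FDR of at most 0.001 the counts were 9 in ISCs/EBs and 6 in ECs (16.4% and 10.9%, against 20.7% and 18.2% of all genes). With heights of at least 0.5 they were 9 and 10 (16.4% and 18.2%, against 16.5% and 14% of all genes).

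The largest Ets21c heights of the members were those of the trypsin genes alphaTry and epsilonTry in ISCs/EBs, both 1.0 with an FDR listed at 0, at rank 51 of the list. In ECs epsilonTry was listed at 0.74 and alphaTry was not listed. The genes are 117 bp apart and carry the same height and FDR, so they may share a peak. Further along the array thetaTry had 0.54 in ISCs/EBs and 0.48 in ECs, and etaTry, 290 bp from it, 0.48 in ECs alone. At the near end lambdaTry and kappaTry had 0.45 and 0.39 in ECs, and at the far end iotaTry had 0.65 in ISCs/EBs, the value of its neighbor CG12384. The 11 trypsin genes lie within 20.7 kb (chr2R:11336840-11357537). Listed in ECs alone were lambdaTry, kappaTry and etaTry, and in ISCs/EBs alone alphaTry and iotaTry. Between etaTry and iotaTry, thetaTry and epsilonTry were listed in both cell types. Unlisted were betaTry, gammaTry, deltaTry and zetaTry.

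In the maltase array (chr2R:8449664-8473961, 24.3 kb) Ets21c was listed in both cell types at Mal-A1, Mal-A4, Mal-A7 and Mal-A8. Mal-A1 stood at 0.62 in ISCs/EBs and 0.67 in ECs, Mal-A4 at 0.37 and 0.50, Mal-A7 at 0.40 and 0.51, and Mal-A8 at 0.43 and 0.51. All 4 heights were larger in ECs, by 0.05 to 0.13, whereas the other 5 members listed in both cell types had the larger height in ISCs/EBs. Of all 3417 genes in both Ets21c lists, 1431 were higher in ECs and 1922 in ISCs/EBs. Not all of the 4 maltase genes are separate measurements in ECs, where Mal-A7 and Mal-A8, 290 bp apart, have equal values. In ISCs/EBs the 4 heights differ. Other shared values are with genes outside the 4: Mal-A4 has those of Mal-A5 in ISCs/EBs (0.37) and of Mal-A3 in ECs (0.50). Mal-A1 shares its values in both cell types with the overlapping cytochrome P450 gene Cyp4e1. Mal-A2 and Mal-A6 were in no list.

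**Figure D4:**
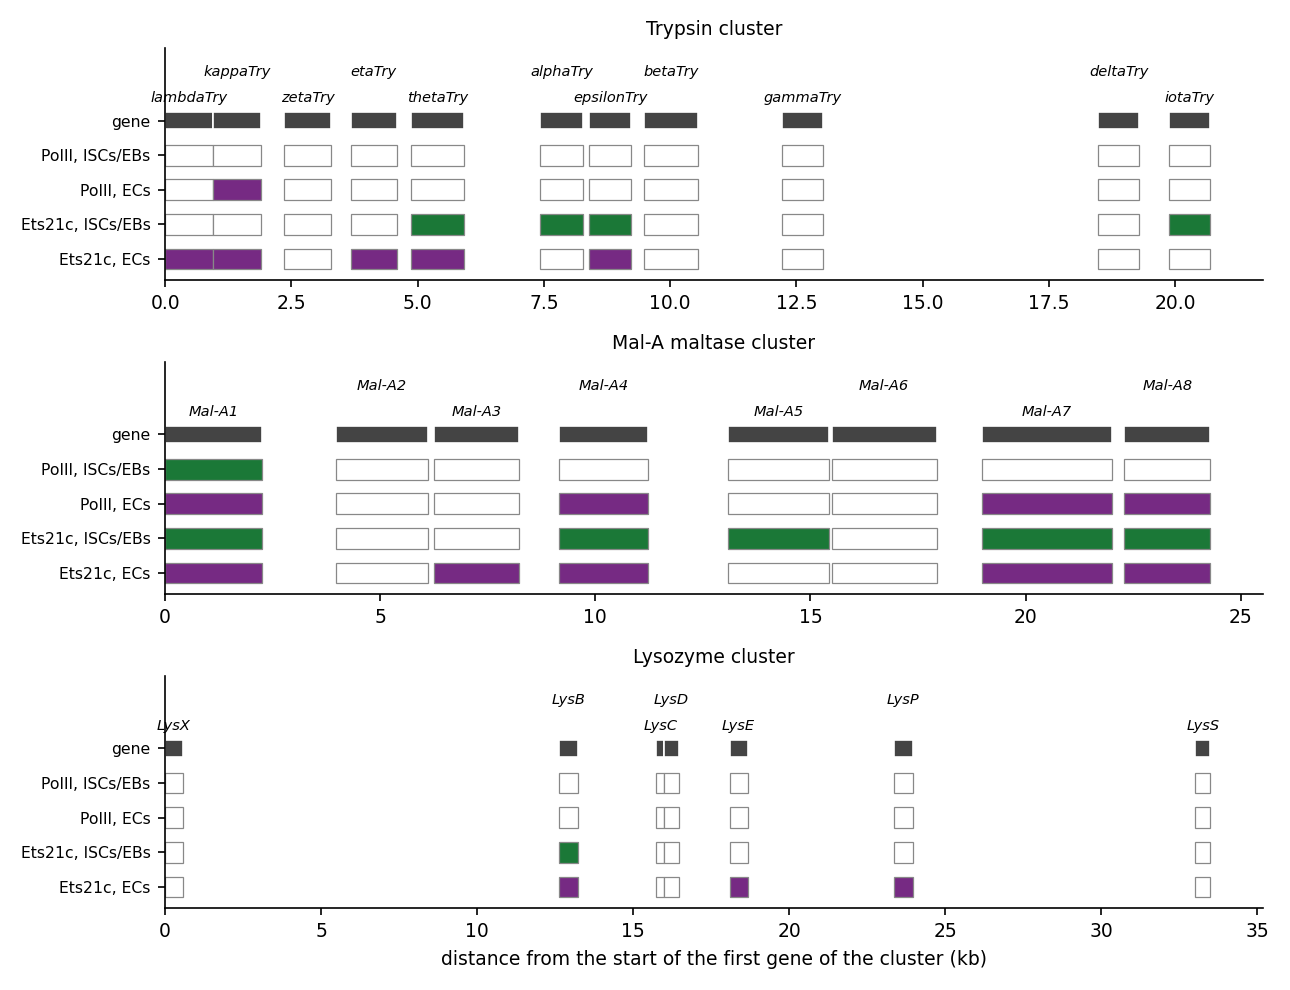
Maps of the trypsin, Mal-A and lysozyme arrays, with distance from the start of the first gene in kb and a row for each list; filled boxes are genes in the list (green for ISCs/EBs, purple for ECs) and open boxes are genes not in it. In the Mal-A array 4 genes are filled for PolII in ECs and 1 in ISCs/EBs, and in the lysozyme array no gene is filled for PolII.

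Amy-p, one of the paired amylase genes, had high Ets21c heights in both cell types, 0.80 in ISCs/EBs and 0.76 in ECs, above 93.6% and 92.9% of the lists. It shares both values with the serpin gene Spn53F, 2594 bp away, and with asRNA:CR45272. The other amylase gene Amy-d and the related Amyrel were unlisted. LysB stood at 0.89 in ISCs/EBs, above 97.1% of the list, and at 0.65 in ECs, where meep, 4334 bp away, has the same values. LysE and LysP were listed in ECs alone at 0.47, a value that they share with mwh, the gene that overlaps both. LManI had an Ets21c height of 0.64 in ECs (FDR 6e-04). Jon74E had 0.41 in ECs, equal to its neighbor CG7542, and yip7 had 0.66 in ISCs/EBs, equal to its neighbors CG6462 and lncRNA:CR43952. The heights of mex1 were 0.55 in ISCs/EBs and 0.52 in ECs. Jon99Ci was in neither Ets21c list. In all, 8 of the 13 members in ISCs/EBs and 12 of the 17 in ECs have the height and FDR of a gene within 5 kb, as do 66.1% and 66.8% of all genes of these lists, so peaks are fewer than genes. No member of a PolII list has such a partner, which is also rare among all genes of these lists (1.95% in ISCs/EBs and 2.75% in ECs).

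Near-identical copies limit what can be said of unlisted members. The share of 50-base windows, the length of the reads, that occur once in the genome was 0% for gammaTry, 4.5% for deltaTry, 15.4% for Jon99Cii, 30.4% for LysD, 42.1% for Amy-d, 44.3% for Amy-p and 46.4% for Jon99Ciii. Of these 7 genes under 50%, 6 were unlisted, and Amy-p was listed. Amy-p, alphaTry (67.1%), LysB (70.6%) and LysE (84.4%) were listed for Ets21c alone, whose peaks can lie up to 5 kb from the gene. Peak positions are not given, so which copy these listings rest on is not known and was not tested. Over 95% of windows were unique in 18 of 22 listed and 21 of 33 unlisted genes. The sources used here do not give how reads with several matches were placed, and the part of this in the missing entries was not tested. The family is short, with a median of 960 bp against 2164.5 bp for protein-coding genes, and has a median of 7 GATC sites against 10. No member lacks a GATC site. Listed and unlisted members both had a median of 7 sites.

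**Figure D5:**
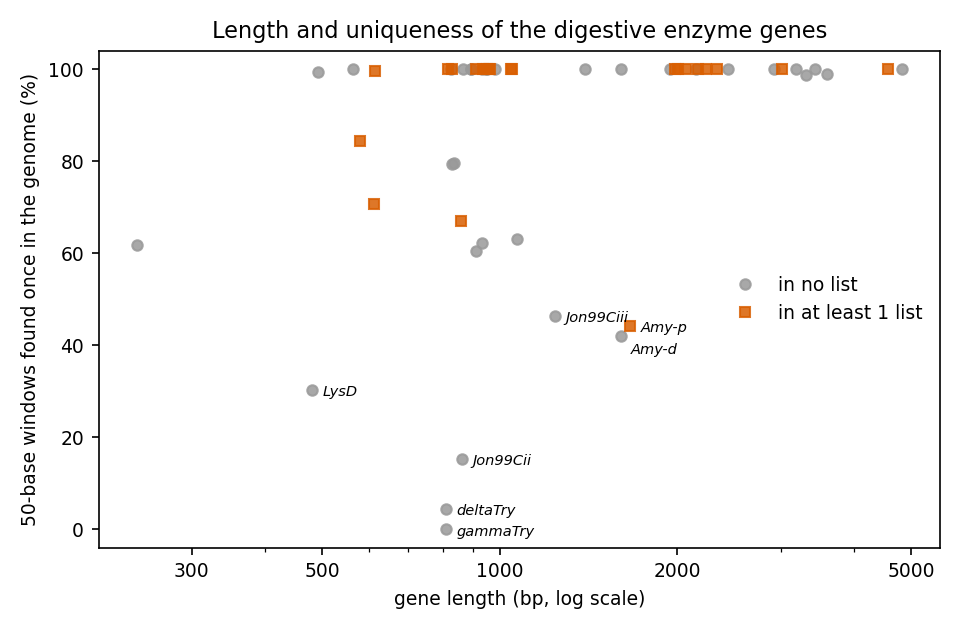
Gene length (bp, log axis) and percent of 50-base windows found once in the genome for the 55 digestive enzyme genes, as squares for genes in at least 1 list and circles for genes in no list. The 7 genes under 50% are named, and Amy-p is the listed one among them.

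Of 37 other genes of digestion and nutrient uptake 9 were PolII-bound in ISCs/EBs (24.3%, against 12.0% of all genes) and 8 in ECs (21.6%, against 5.15%), and 6 were in both lists. These were the cathepsin genes CtsB (1.09 in ISCs/EBs and 0.47 in ECs) and CtsL1 (1.155 and 0.409), the trehalase gene Treh (1.143 and 0.47), the amino acid transporter genes path (1.026 and 0.331) and slif (0.484 and 0.462), and Npc2e (1.782 and 0.869), of a sterol-binding family. In ECs alone were the oligopeptide transporter gene yin (0.398) and the lipoprotein receptor gene LpR1 (0.319), 2 of 8 (25.0%), where the digestive enzymes had 7 of 9 (77.8%) and all genes 25.3%. In ISCs/EBs alone were the lipase gene Lip4 (0.589) and the sugar transporter genes Tret1-1 (0.324) and sut1 (0.731). Whether the 2 sets of genes differ was not tested. Ets21c was listed at 14 of the 37 in ISCs/EBs (37.8%, against 28.1% of all genes) and at 22 in ECs (59.5%, against 26.4%), with the secreted lipase gene mag (0.41) and the sterol transporter gene Npc1b (0.44) among those in ECs alone.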

How the data were processed

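TaDa libraries were made from midgut DNA of 18 samples in 6 groups and sequenced as 50-base single-end reads. The authors computed, per GATC fragment, log2 ratios of fusion to Dam-only signal, which are the unit of the deposited heights. For PolII, the authors averaged log2 ratios over transcripts and replicates and kept the highest FDR. For Ets21c, the authors left out replicate 2 of each cell type as noisy and called peaks of at least 2 fragments at an FDR under 1%. Peaks had to be found in all replicates used. A gene was assigned if within 5 kb of a peak and not separated from it by another gene. The deposited FDRs, handled here as p-value-type numbers, were assigned by the authors to peaks for Ets21c and, for PolII, modeled from randomized data by ratio and gene size. The methods name a height threshold of 0.3 for peaks, which 161 and 125 rows of the Ets21c lists are below. The submitters' processing notes name dm3 and the methods a release 6 annotation. The table holds no coordinates. Both fusions of a cell type share their Dam samples, so their lists were set side by side and the overlap between them is not given as a result.

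Members were found by symbol and FlyBase ID, and all 22 matched the annotation of Ensembl release 115 (BDGP6), whose 18358 genes without transposable elements were the background. Listed genes matched by ID, or else by symbol, numbered 2209, 946, 5163 and 4838. Promoter windows, motifs, GATC sites and unique windows were computed from the RefSeq release 6 genome, since no promoter table was used here, and the search was checked on simulated sequences. All members are accounted for, and non-members were named if within 5 kb at equal height and FDR, if on the fixed marker and digestion lists, or if needed for a label. Members and lists were chosen with earlier results of these data known. Every comparison is a count, share or median, without a test. Alternatives were an FDR of at most 0.001, heights of at least 0.3 and 0.5, 1 gene per run of equal neighbors, matching by ID and other backgrounds. The tools were matplotlib 3.10.9, scipy 1.17.1, numpy 2.4.6 and python 3.11.15.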

Additional observations from a re-analysis of the deposited data

How the results depend on the processing

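Stricter thresholds lowered 5 of the counts by more than 1.5 times. At an FDR of at most 0.001 the members in the PolII list fell from 2 to 0 in ISCs/EBs and from 9 to 1 in ECs, and those in the Ets21c list of ECs from 17 to 6. At a height of at least 0.5 they numbered 4 for PolII in ECs and 10 for Ets21c in ECs. Counting 1 gene per run of neighbors with equal values left 2, 9, 11 and 13 members in the lists of PolII in ISCs/EBs, PolII in ECs, Ets21c in ISCs/EBs and Ets21c in ECs, within 1.5 times of 2, 9, 13 and 17. A height of at least 0.3 and matching by ID left all counts they were applied to as they were. Over protein-coding genes the family shares were 3.7%, 16.7%, 24.1% and 31.5% in the same order, and those of all genes 15.8%, 6.76%, 31.8% and 30.3%. Among protein-coding genes within the lengths of the family the latter were 12.0%, 7.04%, 27.0% and 25.5%. In each list as deposited the family thus stood on the same side of the background in all 3 settings. The margin was least for Ets21c in ECs over protein-coding genes. The side was not kept at every threshold. At an FDR of at most 0.001 the family fell below all genes in both EC lists. It stood there at 1.82% against 1.94% for PolII and 10.9% against 18.2% for Ets21c. At a height of at least 0.5 it kept its side in each list, with 16.4% against 16.5% for Ets21c in ISCs/EBs. No paired analysis was possible because the heights are pooled over replicates, and for the same reason no replicate could be left out. Genes without a value are below the thresholds of the lists or not measurable, which the table does not separate.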

Other observations

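Outside the digestive enzymes, the aspartic protease gene Bace and the gut hormone gene Dh31 carried equal Ets21c values in ECs, a height of 0.99 and an FDR of 0.0083, and neither was in the Ets21c list of ISCs/EBs or in a PolII list. The pair was picked after its values had been seen.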
